A study of Mus musculus with 6 samples.

Results

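Genes of the cell cycle and DNA replication were examined in CD4 single-positive thymocytes, T cells of the thymus that carry CD4 and no longer CD8. The list held 46 genes, chosen by name for their known roles, and each was read from the probe sets whose annotation gave that gene symbol alone. Where a gene had more than 1 such probe set, the one with the highest mean over the arrays was used. This gave 44 measured genes among the 19938 genes of the series. Ccnb1, the main cyclin of mitotic entry, was named by no probe set alone, and Cdkn1a (p21) was listed only in a probe set with several symbols, so neither has a value here.

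RNA was hybridised to 6 arrays, 3 of Ly5.1+ wildtype and 3 of Ly5.1- Bach2 knockout cells, all male on a C57BL/6 background. Both genotypes came from mixed chimeras, in which Rag1 knockout males, 8 weeks old and lethally irradiated, had been given equal parts of wildtype and Bach2 knockout marrow from donors of 8 weeks. Rag1-deficient hosts cannot form T or B lymphocytes themselves. The marrow had been depleted of mature lineages, and the thymocytes were sorted 2 months after transfer. The design text calls the 3 samples of each genotype biological replicates from separate mice. Bach2 is a transcriptional repressor, and the labels do not say which part of the gene the knockout lacks. The comparison asks how RNA levels differ between thymocytes of either genotype that matured in mixed chimeras. The Ly5.1 allele went with the genotype, so its effect and that of Bach2 cannot be told apart.

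In the cell cycle, D and E type cyclins with their kinases carry a cell through G1. They release E2F factors, which switch on the genes that license replication origins, supply deoxynucleotides and copy DNA. Genes of mitosis follow later, driven by FoxM1 and by a protein complex that recognises a short promoter element, the cell cycle homology region. In the thymus, immature thymocytes divide in bursts before the double-positive stage, and most CD4 single-positive cells are resting, so RNA of mitotic genes in such a sort can come from few cells.

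Values are on the log2 scale of the deposited table, so a difference of 1 is a factor of 2 in signal. Array medians lay between 4.93 and 4.97. Bach2 was at 7.89, 8.20 and 8.05 in wildtype and at 6.50, 6.42 and 6.52 in knockout cells (limma, adjusted p = 0.000156). Of all genes, 70 were called higher and 43 lower in the knockout at an adjusted p under 0.05. Pearson's r between arrays, across all probe sets, was 0.981 to 0.988 within wildtype and 0.990 to 0.991 within knockout. All 10 measured markers of CD4 single-positive thymocytes, of 12 listed, lay above the array median on all 6 arrays. Arrays have no read depth, and 3 per genotype limit the precision.

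None of the 44 cell cycle genes passed the test between the genotypes (limma, Benjamini-Hochberg over all genes), against 0.351% of all genes called higher, 0.216% called lower and 0.567% in either direction. At an unadjusted p under 0.05, 5 of 44 were lower in the knockout (11.4%, against 3.87% of all genes) and 2 were higher (4.55%, against 3.04%). The 5 were Ccnd2, Cdkn2d, Aurkb, Cdc6 and Top2a, and the 2 were Foxm1 and Tk1. The count of lower genes fell to 2 without knockout replicate 1 and to 3 without wildtype replicate 2, and that of higher genes fell to 0 without wildtype replicate 1 or knockout replicate 3. The 3 knockout values all lay below the 3 wildtype values for 4 genes (9.09%, against 6.57% of all genes), which were Ccnd2, Mcm2, Aurkb and Cdkn2d. They all lay above for 1 gene, Tk1 (2.27%, against 5.13%).

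Differences between the genotype means ran from -0.46 to 0.36, with a median of -0.07 over the 44 genes and of -0.01 over all genes. Of the 44 differences, 30 were below 0 (68.2%, against 53.8% of all genes). The median depended on single arrays: it was -0.002 without wildtype replicate 2, -0.127 without wildtype replicate 3, and -0.05 with wildtype replicate 2 and knockout replicate 3 both left out. In bulk samples, fewer cells of a type and less RNA per cell cannot be told apart.

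**Figure D1:**
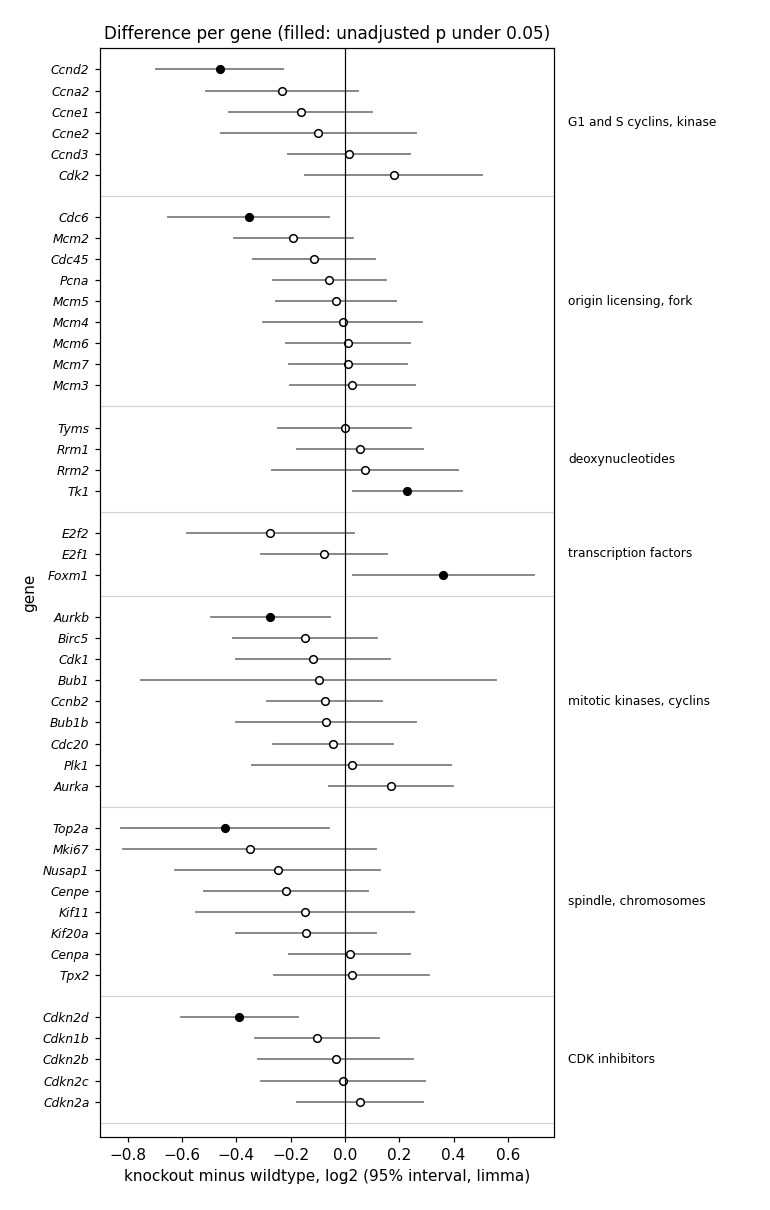
Knockout minus wildtype difference of each of the 44 measured genes on the log2 scale, grouped by role, with points for the fitted difference (filled at an unadjusted p under 0.05) and lines for its 95% confidence interval. Differences run from -0.46 to 0.36, and none passed an adjusted p of 0.05.

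Of the 6 G1 and S phase cyclins and kinase, 4 differences were below 0 and 2 above. Ccnd2 encodes cyclin D2, which pairs with Cdk4 and Cdk6 to start passage through G1. It was at 10.504, 10.81 and 10.67 in wildtype and at 10.245, 10.23 and 10.13 in knockout cells. All 3 knockout values lay below the lowest wildtype value. The difference was -0.46 (95% confidence interval -0.70 to -0.23), with limma's unadjusted p at 0.00137 and adjusted p at 0.131, the smallest of the 44 genes. It kept its sign with each array left out, between -0.54 and -0.39, where the adjusted p ran from 0.0825 to 0.495. A prior variance that followed mean expression gave Ccnd2 an adjusted p of 0.00917, the only call among the 44 genes under any setting tried, and over the alternatives the adjusted p ran up to 0.574.

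Ccna2 encodes cyclin A2, the Cdk2 and Cdk1 partner of S phase and G2. It was at 6.50, 6.91 and 6.66 in wildtype and at 6.36, 6.397 and 6.62 in knockout cells. The highest knockout value fell within the wildtype range, and the difference of -0.23 (-0.51 to 0.05) did not pass (limma, adjusted p = 0.841). Ccne2, cyclin E2, was at 4.88, 5.45 and 4.83 against 4.86, 4.88 and 5.13. Wildtype replicate 2 stood 0.59 above the mean of the other wildtype arrays for this gene, and the difference of -0.10 turned to 0.10 without it. Ccnd3, Ccne1 and Cdk2 had differences of 0.02, -0.16 and 0.18, with both genotypes overlapping.

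The 9 genes of origin licensing and the replication fork differed little, with a median difference of -0.03. Mcm2 to Mcm7 encode the 6 subunits of the replicative helicase. Mcm2 was at 7.50, 7.72 and 7.54 in wildtype and at 7.43, 7.33 and 7.43 in knockout cells. These values did not overlap, but the difference of -0.19 (-0.41 to 0.03) did not pass (limma, adjusted p = 0.813). The other 5 subunits had differences between -0.03 and 0.03. Mcm4 had the widest wildtype spread of the 9, at 7.46, 7.80 and 7.36 against 7.37, 7.59 and 7.64 in the knockout, a difference of -0.01.

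Cdc6 loads the helicase onto origins in G1. It was at 5.54, 5.47 and 5.21 in wildtype and at 4.91, 5.30 and 4.96 in knockout cells. Knockout replicate 2 lay above the lowest wildtype array, and the difference was -0.35 (-0.65 to -0.06; limma, adjusted p = 0.574). Cdc45, a partner of the active helicase, had a difference of -0.11, and Pcna, the sliding clamp of the DNA polymerases, one of -0.06. Median SD within wildtype was 0.101 for these 9 genes, the narrowest of the 7 roles.

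Genes of deoxynucleotide supply lay close to equal between the genotypes, except for 1 probe set of Tk1. Tk1 encodes the cytosolic thymidine kinase of S phase. It was at 6.55, 6.60 and 6.62 in wildtype and at 6.83, 6.76 and 6.87 in knockout cells. All knockout values were higher, by 0.23 on the means (0.03 to 0.43; limma, adjusted p = 0.605). The second Tk1 probe set did not show this, at 6.15, 5.95 and 6.01 against 6.15, 6.04 and 5.90, a difference of -0.01. Which of the probe sets measures the Tk1 transcript better was not tested.

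Rrm1 and Rrm2 encode the large and small subunits of ribonucleotide reductase. Rrm1 was at 7.03, 7.21 and 7.24 against 7.10, 7.22 and 7.32, and the difference was 0.06. Rrm2 was at 5.91, 6.37 and 5.97 against 5.89, 6.21 and 6.37, and the difference was 0.07. Both genes overlapped between the genotypes, and in Rrm2 wildtype replicate 2 and knockout replicate 3 tied for the highest value. Tyms, the thymidylate synthase, had a difference of -0.002.

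The 3 transcription factors differed in sign, and none passed. E2f2, an activating E2F factor, was at 6.11, 6.33 and 6.02 in wildtype and at 5.61, 5.93 and 6.09 in knockout cells. The ranges overlapped through knockout replicate 3, and the difference was -0.28 (-0.58 to 0.03; limma, adjusted p = 0.794). Foxm1, the forkhead activator of mitotic genes, was at 4.87, 5.36 and 5.03 against 5.22, 5.46 and 5.68. Its difference of 0.36 (0.03 to 0.69) was the highest of the 44 genes and did not pass (limma, adjusted p = 0.654), and knockout replicate 1 lay within the wildtype range. E2f1 had a difference of -0.08.

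Among the 9 measured mitotic kinases, cyclins and checkpoint genes, 7 differences were below 0. Aurkb encodes the kinase of the chromosomal passenger complex, which corrects faulty spindle attachments. It was at 6.11, 6.05 and 5.96 in wildtype and at 5.66, 5.86 and 5.78 in knockout cells. Every knockout value was lower than every wildtype value, and the difference was -0.275 (-0.49 to -0.06; limma, adjusted p = 0.529). Aurka, the related kinase of the spindle poles, was at 5.87, 6.12 and 6.03 against 6.15, 6.27 and 6.11. Its difference of 0.17 had the opposite sign (-0.06 to 0.40), with 1 knockout value inside the wildtype range.

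Bub1, a kinase of the spindle checkpoint, had the widest wildtype spread of all 44 genes, with an SD of 0.695. It was at 3.72, 4.92 and 3.71 in wildtype and at 3.76, 3.90 and 4.39 in knockout cells. These values lie at or below the array median on every array, so the probe set was dim, and its difference of -0.10 turned to 0.30 without wildtype replicate 2. Cdk1, the kinase that drives mitosis, was at 5.72, 6.13 and 5.68 against 5.77, 5.75 and 5.66, with wildtype replicate 2 alone above the rest. Plk1, Bub1b and Birc5 (survivin) also had their highest value on that array, and so did Ccnb2, at 7.25 against 7.24 on wildtype replicate 1. Cdc20, the activator of the anaphase promoting complex, was highest on wildtype replicate 1, and differences of these last 6 genes lay between -0.15 and 0.03.

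The 8 genes of the spindle, centromere and chromosome structure had a median difference of -0.18, the lowest of the 7 roles. Top2a encodes the topoisomerase that untangles sister chromosomes, and Mki67 encodes Ki-67, the coat protein of mitotic chromosomes used as a marker of dividing cells. Their promoters are shown because this role had the largest median SD within wildtype, and these are its genes named with values on every array. The sequences are the 150 bases before each gene's start in RefSeq, assembly GRCm38.p6, on the gene's strand, the minus strand in both cases. Top2a lies at chr11:99024190-99024339 and Mki67 at chr7:135716380-135716529. Capitals mark CCAAT or its reverse complement ATTGG (the CCAAT box bound by NF-Y), and TTTGAA or TTCAAA (the core of the cell cycle homology region).
Top2a: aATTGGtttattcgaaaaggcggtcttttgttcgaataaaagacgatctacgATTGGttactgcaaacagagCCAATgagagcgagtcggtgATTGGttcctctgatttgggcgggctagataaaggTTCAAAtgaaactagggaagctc
Mki67: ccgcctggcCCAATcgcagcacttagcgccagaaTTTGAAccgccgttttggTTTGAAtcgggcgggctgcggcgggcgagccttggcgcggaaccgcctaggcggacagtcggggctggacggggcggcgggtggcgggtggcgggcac

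In Top2a the 4 CCAAT boxes began 149, 98, 78 and 58 bases before the start and the homology region core 23 bases before it. In Mki67, 1 CCAAT box began 141 bases before the start and homology region cores 116 and 98 bases before it, and no match overlapped another in either stretch. Over the 250 bases before the start, searched on both strands, a CCAAT box was present in 26 of the 38 listed genes with a RefSeq promoter (68.4%) and in 34.5% of 27025 genes. TTTGAA was present in 9 of 38 (23.7%, against 16.3%), which were Cdk1, Ccnb2, Cdc20, Kif11, Mki67, Top2a, Mcm2, Cdc45 and Cdkn2b. GCGGGAA, an E2F core, was present in 6 (15.8%, against 3.84%), which were Cdk2, Mcm7, Cdc6, Rrm1, Cdkn2a and Cdkn2c. TGAGTCA, the core that AP-1 and Bach2 factors recognise, was found in 0 of the 38, against 4.43% of all promoters. At that share few matches would fall in 38 promoters, so this says little. The other 8 listed genes, among them Ccnd2 and Aurkb, had no promoter sequence here and were not searched. A match is a description of letters, not of binding.

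Top2a was at 6.855, 7.36 and 6.63 in wildtype and at 6.335, 6.53 and 6.66 in knockout cells. Wildtype replicate 2 was the highest array, and knockout replicate 3 lay just above wildtype replicate 3. The difference was -0.44 (-0.83 to -0.06; limma, adjusted p = 0.602), and it was -0.23 without wildtype replicate 2. The second Top2a probe set was dim, at 3.50, 3.62 and 3.31 against 2.95, 3.70 and 3.41. Its difference was -0.12, and its highest value was on knockout replicate 2. The mean of both probe sets gave a difference of -0.28 (limma, adjusted p = 0.863). Mki67 was at 6.397, 7.03 and 6.45 in wildtype and at 5.90, 6.265 and 6.67 in knockout cells. Its values overlapped, since knockout replicate 3 exceeded 2 of the 3 wildtype arrays. The difference of -0.35 (-0.82 to 0.11; limma, adjusted p = 0.881) shrank to -0.15 when wildtype replicate 2 was left out, and to -0.16 when knockout replicate 1 was.

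The mitotic motor Kif11, the motor Kif20a and the kinetochore motor Cenpe had differences of -0.15, -0.14 and -0.22, with Cenpe at or below the array median throughout. Nusap1, a microtubule-binding protein of the spindle, had a difference of -0.25, and the spindle assembly factor Tpx2 one of 0.03. Cenpa, the histone H3 variant of centromeres, had a difference of 0.02. It was the 1 gene of these 8 that was not highest on wildtype replicate 2, and its highest value of 7.82 was on knockout replicate 3.

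**Figure D2:**
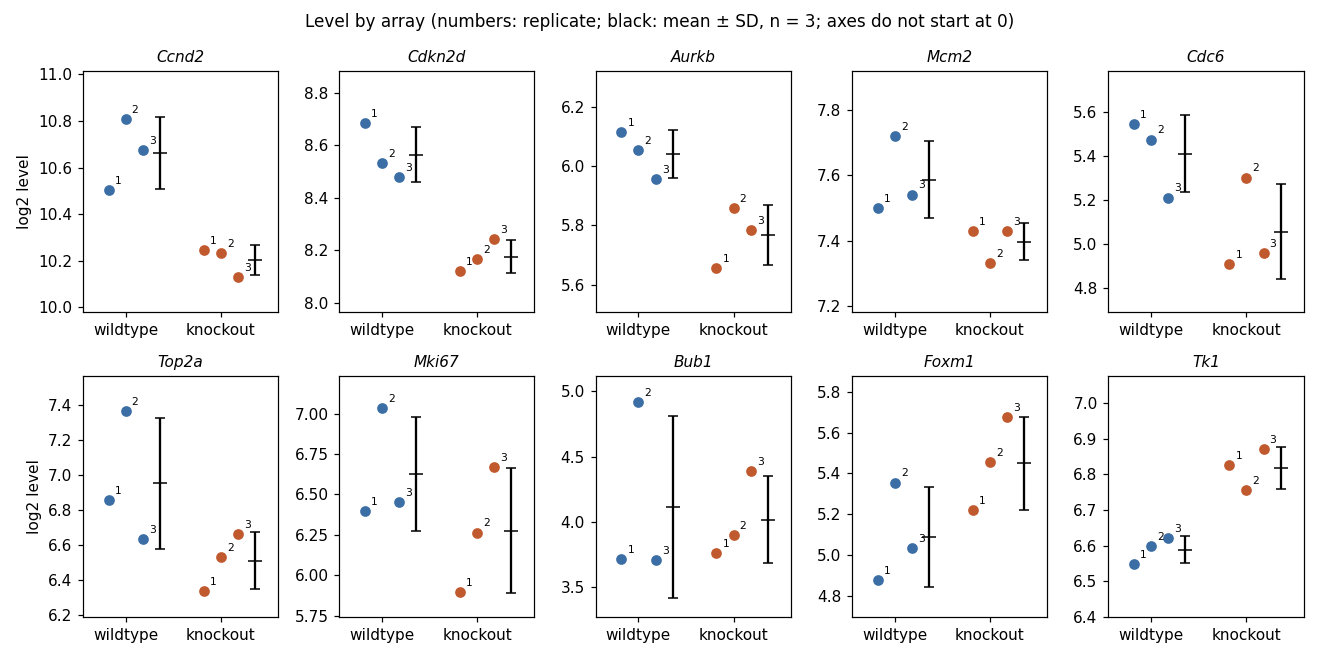
Log2 value on every array for 10 genes of the list, with 1 point per array, numbered by replicate, and black bars for the mean ± SD of each genotype (n = 3). Ccnd2, Cdkn2d, Aurkb and Mcm2 (lower in the knockout) and Tk1 (higher, in the probe set used) separate the genotypes. In Top2a, Mki67 and Bub1 wildtype replicate 2 stands above the other arrays.

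The 5 measured CDK inhibitors, which restrain the cyclin-dependent kinases, included 1 gene that separated the genotypes. Cdkn2d encodes p19, an inhibitor of Cdk4 and Cdk6. It was at 8.68, 8.53 and 8.48 in wildtype and at 8.12, 8.17 and 8.24 in knockout cells. The genotypes did not overlap, and the difference was -0.39 (-0.61 to -0.17; limma, unadjusted p = 0.0025, adjusted p = 0.193). With each array left out in turn it lay between -0.43 and -0.33, and the adjusted p between 0.191 and 0.663. An inhibitor of Cdk4 and Cdk6 (Cdkn2d) and a cyclin that activates them (Ccnd2) thus had the smallest p of the 44 genes, both with lower knockout values.

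Cdkn1b, which encodes p27, was at 10.03, 10.17 and 9.90 against 9.88, 9.91 and 10.01. Its ranges overlapped, with a difference of -0.10 in the probe set used and of -0.09 in the second. Cdkn2c, p18, was at 6.34, 6.15 and 5.91 against 6.34, 6.08 and 5.96, with a difference of -0.01. Cdkn2a, which encodes p16 and p19Arf, was at 5.09, 5.04 and 4.79 against 5.01, 5.04 and 5.04. Cdkn2b, p15, was at 4.94, 4.74 and 5.22 against 4.99, 4.98 and 4.82. Both lay near the array median, where signal says little, and their differences of 0.06 and -0.03 were within the wildtype spread.

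The arrays differed from each other within each genotype, in mitotic genes and in other roles of the list. Of the 44 genes, 27 had their highest value on wildtype replicate 2 (61.4%, against 21.7% of all genes), 1 of them, Rrm2, tied with knockout replicate 3. Among the 6 G1 and S phase genes there were 5 (83.3%), among the 17 genes of both mitotic roles 13 (76.5%), and among the CDK inhibitors 1 of 5. Part of this was shared by expressed genes at large: of the 10614 genes with a mean above 4.94, the median of all values, 33.3% were highest there. By level, the share was 17.3% for genes with a mean of 5 to 6, 34.3% for 6 to 7 and 42.3% for 7 to 8. After each gene was centred on its mean over the 6 arrays, wildtype replicate 2 had a median of 0.315 over the 17 mitotic genes, 0.12 over the 9 licensing genes and 0.05 over genes above 4.94. Over the 6 G1 and S phase genes its median was 0.28. The other wildtype arrays had medians of -0.06 and -0.09 over the mitotic genes.

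These counts were repeated under other scalings, a step added after seeing the data. A second quantile normalization over all probe sets lowered the shares. It left 20 of 44 genes highest on wildtype replicate 2 (45.5%, against 17.5% of genes above 4.94) and 11 of the 17 mitotic genes (64.7%), with a centred median of 0.27 for the latter. The licensing genes then had 3 of 9 highest there and a centred median of 0.04. Centring arrays on their medians, and averaging all probe sets of a gene, both gave 27 of 44.

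**Figure D3:**
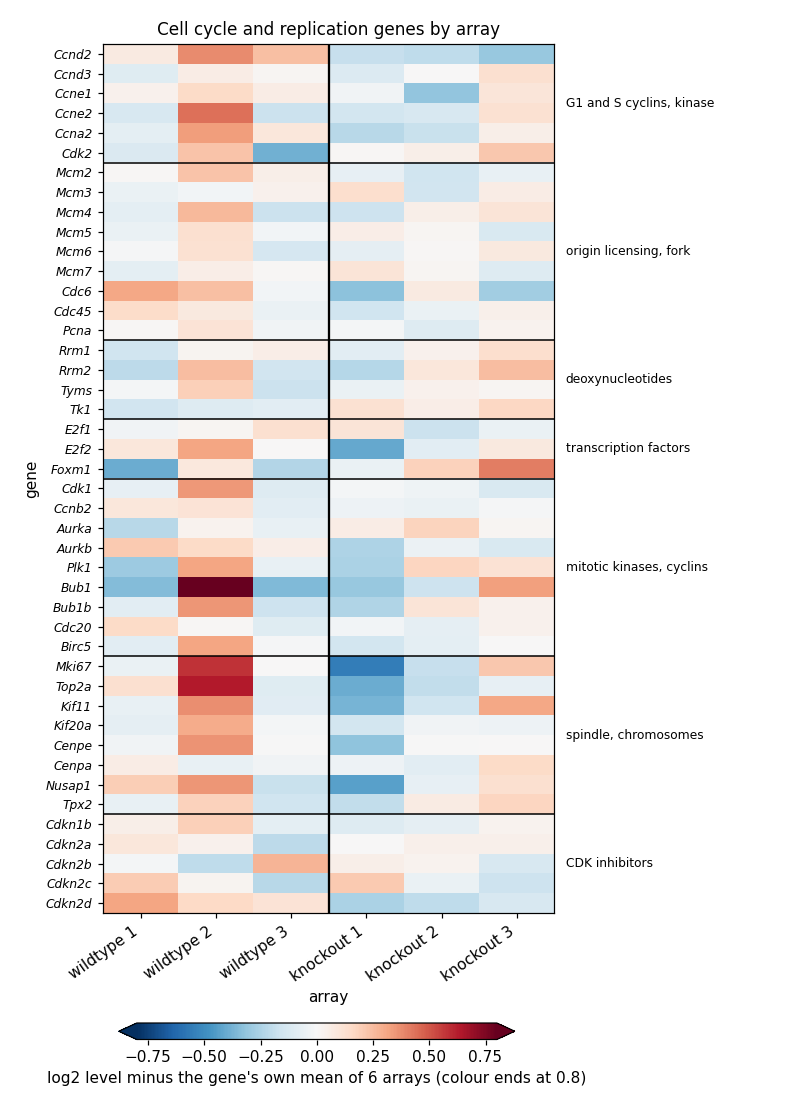
Log2 value of each of the 44 genes on the 6 arrays, centred on the gene's mean over the arrays and grouped by role, with colour for the centred value. Wildtype replicate 2 is the highest array for 27 genes (counting Rrm2, where it ties), 13 of them among the 17 mitotic genes. Knockout replicate 1 is the lowest for 18.

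The knockout arrays also differed from each other. Knockout replicate 1 was the lowest of the 3 knockout arrays for 28 of 44 genes (63.6%, against 31.7% of all genes), and knockout replicate 3 was the highest for 29 (65.9%, against 30.1%), which are separate counts and not always the same genes. In the spindle role both counts were 7 of 8. Over the spindle genes the centred medians were -0.35, -0.07 and 0.14 for knockout replicates 1 to 3, and over the 17 mitotic genes they were -0.24, -0.06 and 0.03. Wildtype replicate 2 and knockout replicate 1 thus lay at the ends of these medians over the 17 mitotic genes, at 0.315 and -0.24, and the other 4 arrays lay between them.

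The spread within wildtype was as large as most differences. The median SD within genotype was 0.169 in wildtype and 0.114 in knockout cells for the 44 genes, against 0.141 and 0.102 over all genes. The wildtype SD was the larger in 29 of 44 genes (65.9%, against 65.0% of all genes), so this balance was near that of the series. The wildtype range exceeded the size of the genotype difference in 38 of 44 genes (86.4%, against 87.4%). By role the median wildtype SD was 0.239 for the spindle genes, 0.212 for the mitotic kinases and 0.101 for licensing.

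**Figure D4:**
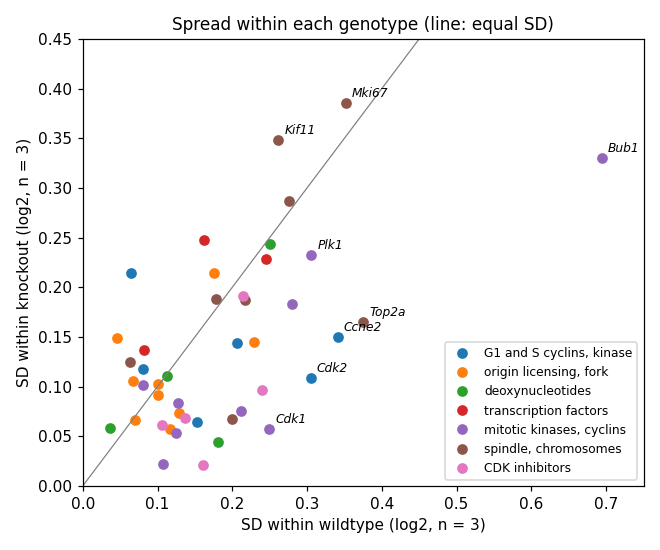
SD within wildtype against SD within knockout for each of the 44 genes, both on the log2 scale with n = 3 arrays, coloured by role, with a line of equality. Bub1 has the widest wildtype SD at 0.695, and 29 genes lie on the wildtype side of the line.

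Further genes of the same processes, from lists that hold none of the 46, were read in the same way, and none of them passed the test. Of 66 measured genes of mitosis (69 listed), 9 were lower (13.6%, against 3.87% of all genes) and 0 higher at an unadjusted p under 0.05 (limma). Of their differences 48 were below 0 (72.7%, against 53.8%), with a median of -0.11. The knockout values lay wholly below wildtype for 8 of the 66 (12.1%, against 6.57% of all genes) and wholly above for 1 (1.52%, against 5.13%). Kif23, the motor of the central spindle, was at 6.84, 7.13 and 6.81 in wildtype and at 6.34, 6.54 and 6.45 in knockout cells. Smc4, a core subunit of condensin, was at 9.91, 10.20 and 10.004 against 9.50, 9.67 and 9.68. Neither gene overlapped between the genotypes, with differences of -0.48 for Kif23 (limma, adjusted p = 0.158) and -0.42 for Smc4 (adjusted p = 0.209). Wildtype replicate 2 was the highest array for 41 of the 66 (62.1%, against 21.7% of all genes and 33.3% of genes above 4.94).

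Of 42 measured replication genes (44 listed), 2 were lower and 0 higher at an unadjusted p under 0.05 (limma). The 2 are 4.76% of the list, near the 3.87% of all genes. The median difference was -0.03, and 15 genes were highest on wildtype replicate 2 (35.7%, against 33.3% of genes above 4.94). Clspn, the checkpoint mediator claspin, was at 5.03, 5.24 and 5.36 against 4.88, 4.79 and 4.84. Tipin, of the fork protection complex, was at 7.01, 7.15 and 6.85 against 6.85, 6.56 and 6.80. Clspn did not overlap between the genotypes and Tipin did, with differences of -0.37 (limma, adjusted p = 0.312) and -0.27 (adjusted p = 0.710). Of the 42, Clspn was the 1 gene with knockout values wholly below wildtype (2.38%, against 6.57% of all genes). They lay wholly above for 4 (9.52%, against 5.13%), which were Gins4, Pold1, Rfc5 and Rpa1.

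Of 34 measured genes of G1 control and quiescence (35 listed), 3 were lower (8.82%, against 3.87% of all genes) and 1 higher (2.94%, against 3.04%) at an unadjusted p under 0.05 (limma), with a median difference of -0.05. Foxo1, a forkhead factor of T cell quiescence and homing, was at 8.70, 8.77 and 8.60 against 8.34, 8.25 and 8.29. Myc, the growth regulator, was at 9.88, 10.04 and 9.96 against 9.71, 9.66 and 9.68. Both separated the genotypes, with differences of -0.40 (limma, adjusted p = 0.150) and -0.28 (adjusted p = 0.449).

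**Figure D5:**
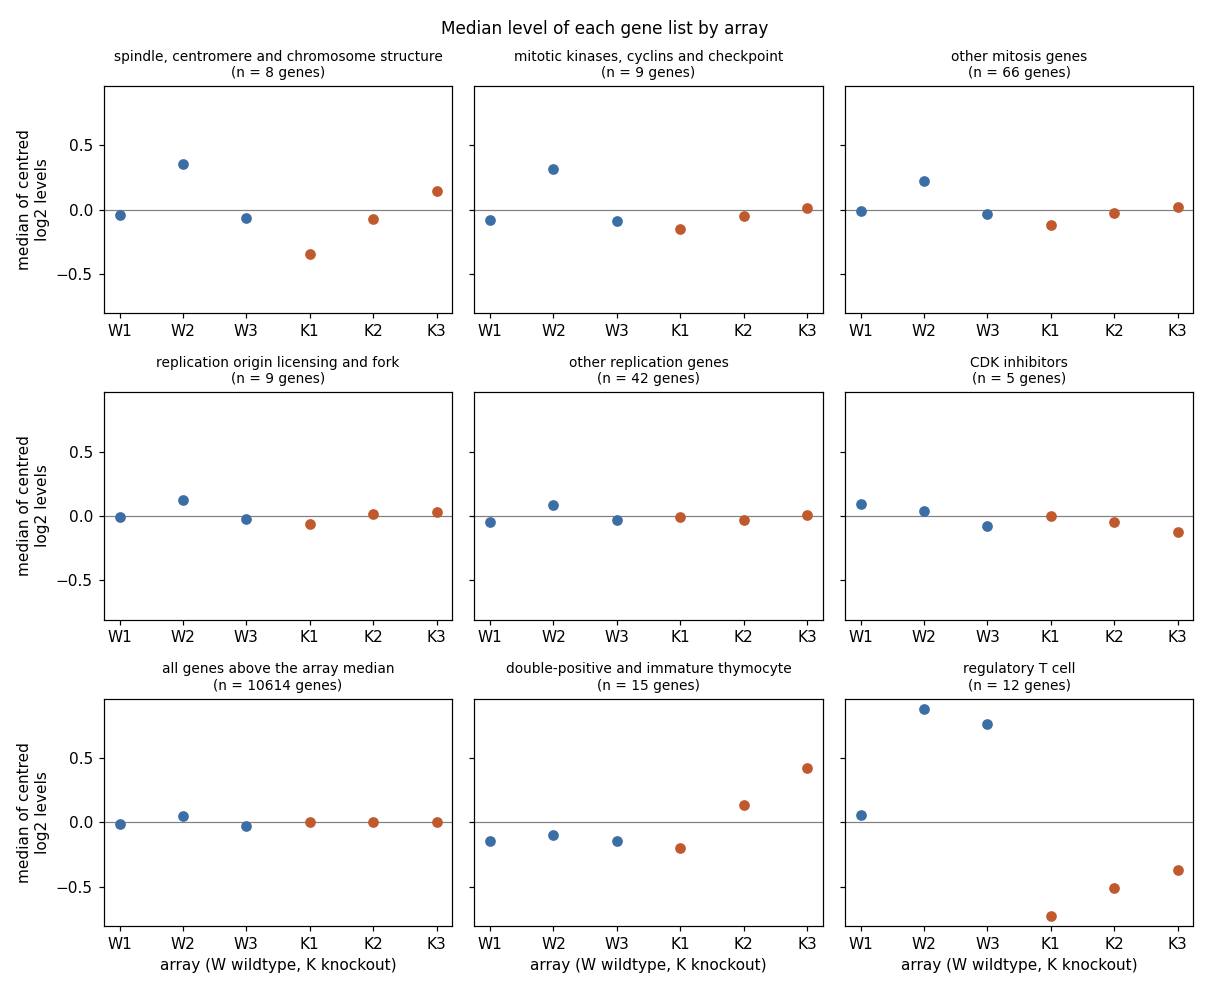
Median centred log2 value on each array for 4 roles of the list, the further mitosis and replication genes, all genes above 4.94, and markers of double-positive thymocytes and regulatory T cells. Mitotic, licensing and replication lists, all genes above 4.94 and regulatory T cell markers are highest on wildtype replicate 2. Double-positive thymocyte markers are highest on knockout replicate 3.

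Markers of other thymocytes also varied between the arrays, and their part in the results above was not tested. The 15 measured markers of double-positive and immature thymocytes (16 listed) had mean levels of 6.95, 7.15 and 7.02 in wildtype and of 7.02, 7.35 and 7.73 in knockout cells. Knockout replicate 3 was highest for 10 of the 15 (66.7%, against 10.5% of all genes) and wildtype replicate 2 for 3 (20.0%, against 21.7%). None was called, and 1 lay at or below the array median on every array. At an unadjusted p under 0.05 (limma), 5 were higher in the knockout (33.3%, against 3.04% of all genes) and 1 was lower (6.67%, against 3.87%). Rag1, which cuts T cell receptor genes for recombination, was at 5.70, 6.61 and 7.09 against 6.55, 7.92 and 8.75, the largest rise of the 15. Differences of the 15 ran from -0.46 to 1.27 with a median of 0.34, and 3 were below 0 (20.0%, against 53.8% of all genes). Among the knockout arrays, replicate 1 was lowest and replicate 3 highest in the mean of these markers, as in 12 and 11 of the 17 mitotic genes. Wildtype replicate 2 was the highest wildtype array in that mean, but below knockout replicates 2 and 3.

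The 12 measured markers of regulatory T cells (13 listed) had mean levels of 7.54, 8.32 and 8.27 in wildtype and of 7.09, 7.09 and 7.21 in knockout cells. Of the 12, 4 were called lower and 1 higher (limma), against 0.216% and 0.351% of all genes. The 13 myeloid and dendritic markers (14 listed) had mean levels of 4.45, 4.42 and 4.48 against 4.80, 4.62 and 4.44. Of these, 8 lay at or below the array median on every array, and 8 were highest on knockout replicate 1 (61.5%, against 16.0% of all genes). Only 1, Lyz2, was called higher, against 0.351% of all genes. The CD8 T cell markers (8 measured) had means of 6.66, 6.89 and 6.95 against 6.24, 6.77 and 6.45. At an unadjusted p under 0.05 (limma), 3 of them were lower (37.5%, against 3.87% of all genes) and 0 higher. For the 7 B cell markers and 4 erythroid markers measured, 0 passed even an unadjusted p under 0.05.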

How the data were processed

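RNA of 6 sorted thymocyte samples was measured on 1-colour arrays. The authors deposited 1 value per probe set and array on a log2 scale, and per the submitters' processing notes they used RMA (robust multi-array average) and Partek. The log2 scale was read from the deposited values. Versions and the genome build were not given in the sources used here. Because RMA brings the arrays' distributions close together, a change of total RNA per cell cannot be read from these values. Some difference between the arrays' distributions remained. A second quantile normalization lowered the share of genes above 4.94 that were highest on wildtype replicate 2 from 33.3% to 17.5%.

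Of 35556 probe sets, 21789 carried 1 gene symbol, 1621 several and 12146 none listed. The 19938 genes so named were fitted with limma 3.58.1 in R 4.3.3 (lmFit and eBayes, two-sided), p-values adjusted by Benjamini-Hochberg across the whole table, threshold 0.05. Lists were described by counts and medians beside the same over all genes. No filter was applied, and 41 of the 44 measured genes had a mean above 4.94.

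The genes, roles, further lists and alternatives were chosen with earlier results of these data known. Named with a value on every array were the 2 genes of smallest p and the one of widest wildtype SD in each of 7 roles, and all CDK inhibitors; from each further list, the 2 genes of smallest p. The fitting procedure was tested on simulated data.

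Alternatives were other priors, no moderation, array weights, a filter on dim genes, median centring, a second quantile normalization, averaged and all probe sets, the replicate number as a block, and leaving out arrays. Promoters came from a RefSeq table of assembly GRCm38.p6. Figures used matplotlib 3.10.9 in Python 3.11.15.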

Additional observations from a re-analysis of the deposited data

How the results depend on the processing

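The precision is limited by 3 arrays per genotype, and for dim genes such as Bub1 and Cenpe by signal at or below the array median. Over 17 alternatives the count of called genes among the 44 was 0, except with a prior variance that followed mean expression, which called 1 (Ccnd2). Over all genes the 113 calls became 178 with that prior, 1 without moderation, 37 over all probe sets and 47 with wildtype replicate 2 and knockout replicate 3 both left out, and 47 to 118 with each array left out (47 without wildtype replicate 3, 62 and 63 without knockout replicates 3 and 2). At an unadjusted p under 0.05, the 5 lower genes became 3 without moderation and 3 with array weights, and 2 to 7 with each array left out (2 without knockout replicate 1, 3 without wildtype replicate 2). The 2 higher genes became 1 without moderation, 1 with averaged probe sets, 1 over all probe sets and 1 with both arrays left out, and 0 to 3 with each array left out (0 without wildtype replicate 1 or knockout replicate 3). The median difference ran from -0.127 (without wildtype replicate 3) to -0.002 (without wildtype replicate 2), and was -0.03 with array weights and -0.05 with wildtype replicate 2 and knockout replicate 3 both left out. Leaving out both arrays was chosen after seeing the data. Of 21 named genes, 13 kept their sign throughout. With array weights the sign turned for Cdkn2c (0.00826), Bub1 (0.14), Ccne2 (0.0162) and Mcm4 (0.0878), with both arrays left out for Cdkn2c (0.0855), Bub1 (0.12), Ccne2 (0.012) and Mcm4 (0.0655), and with a second quantile normalization for Cdkn2c (0.00158). With each array left out, differences spanned -0.12 to 0.10 for Cdkn2c, -0.30 to 0.30 for Bub1, -0.21 to 0.10 for Ccne2, -0.10 to 0.12 for Mcm4, -0.00967 to 0.112 for Rrm1, -0.032 to 0.218 for Rrm2, -0.0367 to 0.115 for Cdkn2a and -0.146 to 0.0922 for Cdkn2b. The cause was not tested.

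No label says whether arrays of equal replicate number came from the same chimera. Deviations from the genotype means correlated at 0.213, 0.113 and -0.065 for numbers 1, 2 and 3 (Pearson's r across 19938 genes). Wildtype replicate 2 correlated best with knockout replicate 3, at 0.172. Deviations from a mean of 3 arrays depend on each other, so these correlations cannot decide whether the arrays were paired. With the replicate number as a block, 0 of the 44 genes and 134 of all genes were called.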

Other observations

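Some genes of the further replication and mitosis lists stood apart on wildtype replicate 2 by more than most of the 44 genes. They are named here after their values were seen, as the 5 widest such gaps on those lists. Pole2, the second subunit of DNA polymerase epsilon, was at 5.51, 6.42 and 5.42 in wildtype and at 5.62, 5.36 and 5.55 in knockout cells. Hmmr, a spindle-associated protein, was at 3.77, 4.54 and 3.78 against 3.97, 3.77 and 3.97, all at or below the array medians. Prim1, the catalytic subunit of primase, was at 5.83, 6.46 and 5.58 against 6.02, 6.10 and 6.20. Kif20b, a motor of cytokinesis, was at 5.29, 5.97 and 5.20 against 4.95, 5.47 and 5.33. Smc2, a core subunit of condensin, was at 6.41, 7.16 and 6.54 against 6.46, 6.63 and 6.60. In all 5 genes wildtype replicate 2 was the highest of the 6 arrays, by 0.69 to 0.95 over the mean of the other wildtype arrays. These gaps have no test, since they concern 1 array.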
